A study of Mus musculus with 12 samples.

Results

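Basal and luminal epithelial cells of the mouse mammary gland were compared at the end of pregnancy, on day 18.5, shortly before birth. The members were chosen by their labels alone. The basal group held 2 libraries and the luminal group 2, which made 4 of the 12 libraries of the series. Both groups came from wild type female mice of the FVB/N strain, at 2 mice per stage, with no treatment. The cells were sorted from the gland by flow cytometry, and neither the antibodies and gates of the sort nor the age of the mice were in the labels. The other 8 libraries were basal and luminal cells of virgin mice and of mice on day 2 of lactation, and they enter below where the difference between the cell types is set against that of another stage. All 6 luminal libraries were run in lane 1 and all 6 basal libraries in lane 2, so cell type and sequencing lane cannot be told apart in any difference given here.

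The mammary epithelium has an inner luminal and an outer basal layer. Luminal cells line the ducts and milk-making alveoli, and some of them carry the receptors for oestrogen and progesterone that relay hormone signals to their neighbours. Most basal cells are myoepithelial: they carry a smooth muscle apparatus, contract under oxytocin to eject milk, and rest on a basement membrane that they help to build. Late in pregnancy alveolar cells, driven by prolactin through STAT5, already hold milk protein transcripts, while progesterone still holds back full milk secretion.

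RNA sequencing gave raw read counts per gene. The basal libraries held 24.10 M and 22.67 M counts and the luminal libraries 22.24 M and 21.99 M. At least 1 count was found for 18533 and 18473 genes in basal cells and for 17376 and 17275 genes in luminal cells. Genes of the milk protein list took 0.877% and 0.631% of the counts in basal cells and 20.093% and 23.194% in luminal cells. Across genes, which do not count as replicates, the log2 CPM of the 2 replicates had a Pearson r of 0.9906 in basal and 0.9891 in luminal cells. In the text, a level is a CPM value, that is, counts scaled by TMM to a common library total, and a difference is the log2 of basal over luminal with its standard error (SE), from 1 edgeR model of all 12 libraries. A gene was called, and is described as higher or lower in basal cells, where its adjusted p was below 0.05 (edgeR quasi-likelihood test, Benjamini-Hochberg adjustment over 15969 genes). In sorted bulk samples fewer cells of a type and less RNA per cell cannot be told apart.

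Most genes tested differed between the cell types. In late pregnancy 11155 of 15969 genes were called (69.9%), 5737 higher in basal cells (35.9%) and 5418 lower (33.9%). Each count of list members below is to be read against these shares of 35.9% and 33.9%. The calls are so many that a small difference is often called, and the median size of a called difference was 1.33. Tested against a 2-fold change, 3285 genes were higher (20.6%) and 1978 lower (12.4%), or 5263 in all (33.0%). Without any test, both basal libraries lay above both luminal ones in 43.4% of genes and below them in 40.9%. Genes higher in basal cells took 53.4% and 55.8% of the counts in basal libraries, against 15.1% and 14.7% in luminal libraries. Genes lower in basal cells took 26.6% and 25.1% in basal libraries, against 67.2% and 68.9% in luminal libraries. Both sets of genes were called in these same libraries, so the side of these gaps follows from the choice. Large differences were more often on the basal side: 2726 called genes were higher and 1252 lower by more than 4-fold.

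The identity genes of both cell types mostly followed the labels. All 20 basal identity genes tested were higher in basal cells, with a median difference of 5.96, where 35.9% of all genes tested were higher in basal cells. Of the 20 luminal identity genes, 18 were lower in basal cells, where 33.9% of all genes were, and 1 was higher, with a median of -2.0. Krt5, the type II keratin of basal cells, had 1768 and 2133 CPM in the basal libraries, against 3.94 and 3.99 CPM in the luminal libraries. The level was over 1000 CPM in both basal libraries and under 10 CPM in both luminal ones, a difference of 8.94 (SE 0.22). Trp63, the transcription factor that maintains basal epithelium, had 238 and 288 CPM in the basal libraries, against 1.03 and 1.87 CPM in the luminal libraries (7.51, SE 0.25). On the luminal side Elf5, the transcription factor of alveolar differentiation, had 26 and 16.9 CPM in the basal libraries, against 707 and 758 CPM in the luminal libraries (-5.09, SE 0.20), and Krt18, a keratin of simple epithelium, had 82.5 and 83.8 CPM in the basal libraries, against 1501 and 2001 CPM in the luminal libraries (-4.40, SE 0.18). In none of these 4 genes did the groups overlap, which also held for most genes tested (43.4% higher and 40.9% lower in both basal libraries).

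Promoters of contractile and milk protein genes were searched for a pair of motifs in the 250 bases before the transcription start, the CArG box (CC, a run of A or T, GG), which binds serum response factor at smooth muscle genes, and TTCNNNGAA, the form bound by STAT5 at milk protein genes. Both are their own reverse complement, so that a match lies on both strands. The RefSeq promoter table (GRCm38.p6) held 20 of the 24 contractile genes, with 23 promoters, and 17 of the 20 milk protein genes, with 18. A CArG box stood in 6 of the 23 contractile promoters (26.09%) and in 0 of the 18 milk promoters, against 1.47% of all 32851 promoters. TTCNNNGAA stood in 3 of the 18 milk promoters (16.67%) and in 0 of the 23 contractile ones, against 7.02% of all promoters. A match describes these letters and is not a shown binding site. Of the contractile promoters with a box, 2 belong to Ldb3, where the same box lies before each of 2 starts, so it is counted in both. The matches in these lists are printed below for each gene that held one, once for Ldb3, with the motif in capitals, from 5′ to 3′ on the strand of the gene:
Myl9, a myosin light chain, chr2:156775273-156775342, + strand: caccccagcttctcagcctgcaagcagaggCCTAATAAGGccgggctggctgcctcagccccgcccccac
Cnn2, a calponin, chr10:79988514-79988583, + strand: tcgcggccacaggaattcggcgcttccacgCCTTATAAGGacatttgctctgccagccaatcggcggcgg
Myl6, a myosin light chain, chr10:128493020-128493089, - strand: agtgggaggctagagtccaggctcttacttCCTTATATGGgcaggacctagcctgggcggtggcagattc
Vcl, vinculin, chr14:20929148-20929210, + strand: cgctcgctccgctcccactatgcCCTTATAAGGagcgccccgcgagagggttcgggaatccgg
Ldb3, a Z-disc protein of striated muscle, chr14:34588677-34588746, - strand: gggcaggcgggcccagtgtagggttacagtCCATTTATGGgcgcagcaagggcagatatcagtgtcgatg
Csn1s1, an alpha-casein, chr5:87666078-87666146, + strand: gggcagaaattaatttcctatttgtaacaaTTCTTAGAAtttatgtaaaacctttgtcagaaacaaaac
Csn2, beta-casein, chr5:87699480-87699548, - strand: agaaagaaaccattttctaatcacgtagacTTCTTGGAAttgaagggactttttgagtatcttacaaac
Glycam1, a milk mucin, chr15:103565188-103565256, - strand: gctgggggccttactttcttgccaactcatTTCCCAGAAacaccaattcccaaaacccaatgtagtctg

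The contractile apparatus of smooth muscle was higher in basal cells in nearly all of its members. Of 24 contractile genes, 23 were higher in basal cells (35.9% of all genes tested), 1 was lower, and the median difference was 5.61, against 0.02 over all genes. Acta2 (Entrez 11475; chromosome 19, 34240336 to 34255585 in GRCm38.p6), smooth muscle alpha-actin, had 14460.5 and 17327 CPM in the basal libraries, against 36.8 and 36.5 CPM in the luminal libraries. Both basal values lay far above both luminal ones, a difference of 8.76 (SE 0.32; edgeR adjusted p = 1.69e-10), and no gene had a larger gap in mean CPM in favour of basal cells. Myh11 (Entrez 17880; chromosome 16, 14194527 to 14292188), the smooth muscle myosin heavy chain, had 8243 and 10509 CPM in the basal libraries, against 21.2 and 23.8 CPM in the luminal libraries, a difference of 8.70 (SE 0.33).

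Regulators of the same apparatus moved with it. Mylk, the kinase that phosphorylates myosin light chain to start contraction, had 3076 and 3740.3 CPM in the basal libraries, against 9.05 and 10 CPM in the luminal libraries (8.48, SE 0.24). Calponin (Cnn1), tropomyosin 2 (Tpm2) and the light chain gene Myl9, whose promoter is shown above, differed by 8.65 (SE 0.27), 8.74 (SE 0.25) and 8.54 (SE 0.27). The enteric actin gene Actg2 differed by 8.80 (SE 0.25), though reads may be split between near-identical actin genes. Expressed per kilobase, Acta2 stood at 8929 RPKM in basal cells, above Myl9 at 2031, Tpm2 at 1576 and Myh11 at 1414 RPKM. Some further genes differed less than these. Filamin A (Flna), which crosslinks actin, had 5521 and 6250 CPM in the basal libraries, against 291 and 408 CPM in the luminal libraries (4.07, SE 0.19), while vinculin (Vcl), which anchors actin at adhesions and whose exons overlap another gene by 38.7%, differed by 1.64 (SE 0.16) the light chain gene Myl6 by 2.53 (SE 0.14) and the calponin gene Cnn2 by 4.99, or 5.90 without luminal library 2. Tagln, a marker of smooth muscle, was higher by 7.69 (SE 0.26), and its counts are uncertain, since 60.7% of its exon length is shared with other genes and the strand setting is not known. The contractile gene that was lower in basal cells was Ldb3, whose promoter also holds a CArG box, at 1.48 and 1.48 CPM in the basal libraries, against 14.4 and 16.4 CPM in the luminal libraries (-3.38, SE 0.24).

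**Figure D1:**
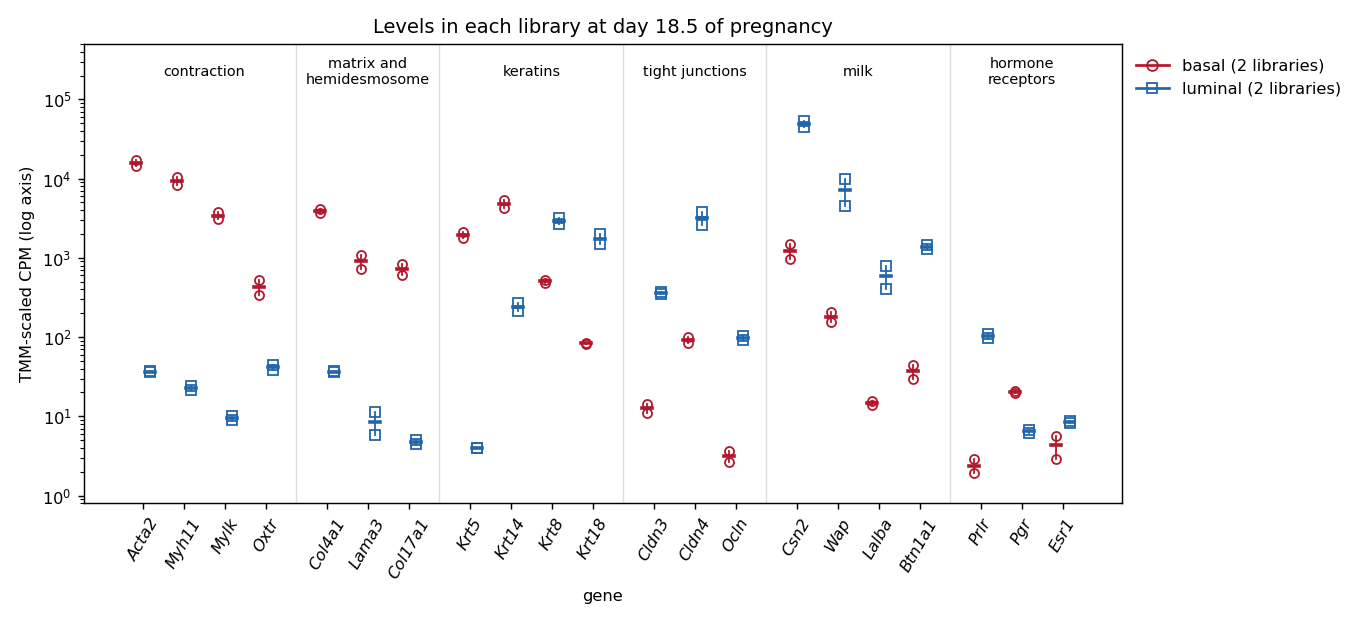
Levels of 21 genes in each library at day 18.5 of pregnancy, as TMM-scaled CPM on a log axis. Circles are the 2 basal libraries, squares the 2 luminal libraries, thick bars their means and thin lines their range. The groups do not overlap in any of these genes, nor in most genes tested (43.4% higher and 40.9% lower in both basal libraries). Pgr is the hormone receptor gene that is higher in basal cells.

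Signals that drive contraction lay mostly on the basal side as well. Of 26 genes of oxytocin and calcium signalling 19 were higher and 5 lower in basal cells, with a median of 2.74. The oxytocin receptor gene Oxtr (Entrez 18430; chromosome 6, 112473683 to 112491035) had 339.6 and 523 CPM in the basal libraries, against 38.6 and 44.5 CPM in the luminal libraries, so that luminal libraries also held a measurable level and the difference was 3.38 (SE 0.25). Kcnmb1, a subunit of the calcium-activated potassium channel of smooth muscle, had 80.1 and 100.3 CPM in the basal libraries, against 0.179 and 0.148 CPM in the luminal libraries (9.05, SE 0.25). Its pore subunit Kcnma1 differed by 8.02 (SE 0.27), or by 8.90 without luminal library 1. Ppp1r14a, which inhibits myosin phosphatase, differed by 8.04 (SE 0.29), and the L-type calcium channel genes Cacna1c and Cacna1d by 3.82 (SE 0.14) and 4.96 (SE 0.26). Stim1, the sensor of calcium stores, was higher in basal cells at 117 ± 11.3 CPM in basal and 12.4 ± 1.4 CPM in luminal cells (SD, n = 2 each), and Orai1, the channel that it opens, was lower at 9.6 ± 1.34 CPM in basal and 75.6 ± 3.87 CPM in luminal cells. The differences were 3.24 (SE 0.13) and -2.97 (SE 0.14). Rhoa, a small GTPase of contraction, was not called at 0.11 (SE 0.10), with 236 and 248 CPM in the basal libraries, against 224 and 225 CPM in the luminal libraries.

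Transcription factors of mechanical and smooth muscle control split by family member. Of 20 genes in the list of SRF, myocardin and YAP/TEAD, 15 were higher and 5 lower in basal cells (median 1.73). Srf, serum response factor, was higher by 0.99 (SE 0.12), with 267 and 286 CPM in the basal libraries, against 138 and 141 CPM in the luminal libraries. Among the TEAD factors, through which YAP acts, Tead1 and Tead3 were higher in basal cells by 2.50 (SE 0.22) and 2.05 (SE 0.13), whereas Tead2 and Tead4 were lower, at -2.52 (SE 0.18) and -3.93 (SE 0.28). Tead4 had 2.03 and 2.06 CPM in the basal libraries, against 31 and 31.4 CPM in the luminal libraries. The matricellular genes Ccn2 and Ccn1, both targets of YAP, went opposite ways: Ccn2 had 3021 and 3358 CPM in the basal libraries, against 385 and 611 CPM in the luminal libraries (2.68, SE 0.24; exon overlap 23.2%) and Ccn1 had 582 and 605 CPM in the basal libraries, against 979 and 1696 CPM in the luminal libraries (-1.17, SE 0.26). Vgll3, a cofactor of TEAD, had 40 and 55.4 CPM in the basal libraries, against 0.134 and 0.296 CPM in the luminal libraries, a difference of 7.78 that was 8.41 without luminal library 2.

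The basement membrane and its receptors formed the second large basal group. Of 24 basement membrane genes 22 were higher and 2 lower in basal cells, with a median of 3.78. Both collagen IV chains of the common network, Col4a1 and Col4a2, were high, with 4076 and 3706 CPM of Col4a1 in basal libraries, against 37 and 36 CPM in luminal libraries (6.74, SE 0.19), and 2743 and 2563 CPM of Col4a2 in basal libraries, against 18.5 and 16.2 CPM in luminal libraries (7.25, SE 0.18). Col7a1, the collagen of anchoring fibrils, differed by 7.31 (SE 0.25). Among laminin chains, which form the sheet that touches the cells, Lama3 and Lama1 differed by 6.73 (SE 0.34) and 4.14 (SE 0.16), and Lamc1 by 3.35 (SE 0.14). Lama5 went the other way, with 150 and 163 CPM in the basal libraries, against 265 and 396 CPM in the luminal libraries (-1.08, SE 0.16), and so did Npnt, a ligand of integrin alpha 8, at -2.01 (SE 0.21). Nidogen 1 (Nid1) and perlecan (Hspg2), which link the laminin and collagen networks, were higher in basal cells by 3.94 (SE 0.36) and 3.15 (SE 0.15).

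Of 21 integrin and hemidesmosome genes 18 were higher in basal cells and 2 lower, with a median of 1.89. Col17a1, the transmembrane collagen of hemidesmosomes, had 609 and 825 CPM in the basal libraries, against 4.97 and 4.49 CPM in the luminal libraries (7.24, SE 0.22). Itgb1, the common beta chain, had 1419 and 1647 CPM in the basal libraries, against 383 and 446 CPM in the luminal libraries, so it was high in both cell types and the difference was 1.89 (SE 0.14). Its partners Itga9, Itga1, Itga5 and Itga3 differed by 7.36 (SE 0.23), 5.59 (SE 0.21), 4.09 (SE 0.28) and 2.47 (SE 0.14). The hemidesmosome chain Itga6 differed by 1.21 (SE 0.15), while its partner Itgb4 was -0.48 (SE 0.17), a call that was lost without luminal library 2 (-0.29) or basal library 1 (-0.23); the count of lower genes then was 1 and 0. Itgb6 was lower at -0.77 (SE 0.22), a call lost without basal library 1 (-0.58).

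Genes for matrix remodelling lay mostly on the basal side too. Of 26 protease and inhibitor genes tested 20 were higher and 2 lower (median 2.53). Mmp2, a gelatinase, differed by 5.62 (SE 0.42), Adamts1, a protease of proteoglycans, by 5.28 (SE 0.23), and Timp3, an inhibitor bound to matrix, by 5.79 (SE 0.22). Timp3 had 541 and 697 CPM in the basal libraries, against 10.6 and 11.9 CPM in the luminal libraries. Mmp15, a membrane-bound protease, was lower at -1.79 (SE 0.17), and Plaur, the receptor of urokinase, at -1.11 (SE 0.27).

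Cell junctions divided between the layers by type. Of 21 genes of tight junctions and apical polarity, 15 were lower in basal cells and 4 higher, with a median of -3.96. Cldn4 (Entrez 12740; chromosome 5, 134945123 to 134946934), which encodes a barrier-forming claudin, had 99.6 and 83.9 CPM in the basal libraries, against 2594 and 3770 CPM in the luminal libraries (-5.12, SE 0.27). Cldn3 had 14.3 and 11.1 CPM in the basal libraries, against 345 and 366 CPM in the luminal libraries and Cldn7 differed by -4.93 (SE 0.23). Occludin (Ocln), cingulin (Cgn) and tricellulin (Marveld2) lay close to these, at -4.93 (SE 0.16), -4.97 (SE 0.19) and -4.51 (SE 0.15). The scaffold gene Tjp1 was not called and had 198 and 208 CPM in the basal libraries, against 185 and 219.6 CPM in the luminal libraries. Cldn5, an endothelial claudin, was higher at 3.14 (SE 0.36).

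Adherens junctions and desmosomes exchanged members. Cdh1, E-cadherin, had 264 and 289 CPM in the basal libraries, against 633 and 685 CPM in the luminal libraries (-1.25, SE 0.14), and Cdh3, P-cadherin, had 374 and 402 CPM in the basal libraries, against 2.96 and 3.2 CPM in the luminal libraries (6.98, SE 0.16). Cdh1 was thus high in both layers, whereas Cdh3 differed far more. In desmosomes, the plakophilin gene Pkp1 differed by 5.49 (SE 0.24) and Pkp2 by -4.74 (SE 0.16), and desmoplakin (Dsp) by 4.85 (SE 0.22). Dsc3, a desmocollin of stratified epithelium, had 565 counts in basal and 3 in luminal libraries, a ratio of 156-fold (95% counting interval 53.2 to 759.7). Dsg2, the desmoglein of simple epithelium, was lower at -1.10 (SE 0.09). Plakoglobin (Jup), which serves both junctions, had 480.4 and 522 CPM in the basal libraries, against 483 and 505 CPM in the luminal libraries and was not called. Over the list 12 of 19 genes were higher and 5 lower (median 1.78).

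Connexins, the channels of gap junctions, gave a further exchange, with 7 of 10 genes higher and 3 lower in basal cells. Gja1, connexin 43, had 369 and 449 CPM in the basal libraries, against 14.6 and 12.6 CPM in the luminal libraries (4.91, SE 0.17). Gjb6 had 3.51 and 2.39 CPM in the basal libraries, against 126 and 124 CPM in the luminal libraries (-5.39, SE 0.18). Gjb2 had 14 and 6.51 CPM in the basal libraries, against 381 and 331 CPM in the luminal libraries (-5.11, SE 0.28, or -5.77 without basal library 1). Gjb1 had 0 counts in both basal libraries and 28 over the luminal ones, which makes it at least 11.3-fold lower in basal cells, against a floor of 3 counts over the group.

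Among keratins and lineage factors the size of the difference varied widely, and Krt14 differed less than the other genes named here as basal. Krt14, the usual type I partner of Krt5, had 4202 and 5449 CPM in the basal libraries, against 216 and 271 CPM in the luminal libraries (4.31, SE 0.31). Luminal libraries therefore held Krt14 at more than 200 CPM and Krt5 at about 4 CPM. At the other stages the difference of Krt14 was larger, 7.32 in virgin and 8.39 in lactating mice, and the departure of late pregnancy from them was -3.01 (SE 0.39) from virgin (-3.61 without virgin luminal library 2) and -4.08 (SE 0.41) from lactation. Krt5 differed by 8.94 at all 3 stages. In virgin luminal libraries Krt14 stood at 16.7 and 33.7 CPM and in lactating ones at 15.4 and 11.1 CPM. Krt17, another basal keratin, had 963 and 1471 CPM in the basal libraries, against 13.5 and 18.7 CPM in the luminal libraries. Snai2, a repressor of E-cadherin that marks basal cells, differed by 8.12 (SE 0.25), and Id4, a regulator of basal stem cells, by 7.42 (SE 0.23). On the luminal side Krt8 had 487 and 530 CPM in the basal libraries, against 2650 and 3163 CPM in the luminal libraries (-2.51, SE 0.19) and Krt19 differed by -3.87 (SE 0.17). The transcription factors Ehf, Elf3 and Gata3 were lower at -4.36 (SE 0.23), -1.89 (SE 0.20) and -0.81 (SE 0.16), so that Gata3, a regulator of the luminal fate, had 62.2 and 62.1 CPM in the basal libraries, against 107 and 110.2 CPM in the luminal libraries. Grhl2, a factor of epithelial junctions, was the luminal identity gene that was higher in basal cells, at 0.94 (SE 0.10), and Spdef was not called.

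Hormone receptors did not all lie on the luminal side at this stage. Of 14 genes of hormone-sensing luminal cells, 12 were lower in basal cells and 2 were higher, with a median of -3.17. Pgr (Entrez 18667; chromosome 9, 8898900 to 8968611), the progesterone receptor gene, had 19.7 and 21.1 CPM in the basal libraries, against 6.81 and 6.11 CPM in the luminal libraries. It was thus higher in both basal libraries than in both luminal ones, by 1.66 (SE 0.18; edgeR adjusted p = 4.08e-06). In virgin mice its difference was -2.76, so the sign was the opposite, and the change between the stages was 4.42 (SE 0.25). Tbx3, a transcription factor of mammary development, was also higher in basal cells, with 15.7 and 14.4 CPM in the basal libraries, against 1.88 and 2.42 CPM in the luminal libraries (2.81, SE 0.24). Esr1, the oestrogen receptor gene, had 2.92 and 5.73 CPM in the basal libraries, against 8.73 and 8.28 CPM in the luminal libraries and was lower at -0.99 (SE 0.25). The prolactin receptor gene Prlr had 2.88 and 1.9 CPM in the basal libraries, against 98.5 and 111 CPM in the luminal libraries (-5.44, SE 0.23). Foxa1, a cofactor of the oestrogen receptor, differed by -4.06 (SE 0.21), and Wnt4, a target of progesterone, by -1.34 (SE 0.19). Tnfsf11, which encodes RANK ligand, had 0.221 and 0 CPM in the basal libraries, against 23.8 and 0.69 CPM in the luminal libraries. That value rests on luminal library 1: the difference of -6.66 was -2.52 and not called without it, -7.61 without luminal library 2, and -11.13 and -5.76 without basal libraries 1 and 2. Tph1, the enzyme of serotonin synthesis, had 0.148 and 0.0412 CPM in the basal libraries, against 14.9 and 24.5 CPM in the luminal libraries, a difference of -7.58 that was -8.72 without basal library 1.

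Genes of alveolar and luminal progenitors were lower in basal cells in 12 of 14 cases and higher in 2, with a median of -4.09. Kit, the receptor of stem cell factor, had 7.34 and 8.82 CPM in the basal libraries, against 149 and 291 CPM in the luminal libraries (-4.77, SE 0.27), while its ligand gene Kitl had 916 and 1186 CPM in the basal libraries, against 123 and 105 CPM in the luminal libraries (3.21, SE 0.16). Cd14 differed by -4.17 (SE 0.23) and Aldh1a3, an enzyme of retinoic acid synthesis, by -2.93, or -2.30 without luminal library 2. Itga2 was higher in basal cells at 1.87 (SE 0.19). Tspan8 was higher too at 1.06, a call lost without luminal library 1 (1.04) or basal library 2 (0.50), which left 1 gene higher.

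Milk protein transcripts were lower in basal cells and were found there at a small share of the luminal level. Of 20 milk protein genes 19 were lower in basal cells and 1 higher, with a median of -5.07. Csn2 (Entrez 12991; chromosome 5, 87692619 to 87699429), beta-casein, had 1479 and 967 CPM in the basal libraries, against 44804 and 53657 CPM in the luminal libraries (-5.33, SE 0.39). Csn1s2a, an alpha-casein with a close paralog that could share its reads, had 1801 and 1209.8 CPM in the basal libraries, against 53201 and 65421 CPM in the luminal libraries, and Wap, the whey acidic protein, 154 and 209 CPM in the basal libraries, against 4456 and 9853 CPM in the luminal libraries. The differences were -5.30 for Csn1s2a and -5.30 for Wap, or -4.62 without luminal library 2. Lalba, the milk protein subunit of lactose synthase, Glycam1 and Csn1s1 differed by -5.34 (SE 0.36), -5.30 (SE 0.25) and -5.33 (SE 0.33). With all libraries these 6 of the 20 genes lay between -5.34 and -5.30, while the median of the list was -5.07. The SEs given here are wider than that range.

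Over the 16 milk protein genes high enough for a ratio, the level in a basal library was a median of 3.02% and 2.65% of the luminal mean in basal libraries 1 and 2. In virgin mice the medians were 2.06% and 2.64% over 11 genes, and in lactation 0.63% and 0.614% over 18 genes. The highest share in late pregnancy was that of Mfge8, the lactadherin of milk fat globules, at 22.9% and 23.7%. Chil1, a chitinase-like protein, was higher in basal cells, with 177 and 222 CPM in the basal libraries, against 6.27 and 6.02 CPM in the luminal libraries (5.02, SE 0.22). Other luminal genes at a high level ended near the same difference. Among 1757 genes with at least 100 CPM in luminal cells, the lowest difference was -5.62, for Atp13a4, and 27 lay below -5 and 0 below -6. At lower levels luminal genes went further, as in Calca (-6.94, and -8.45 and -6.27 without basal libraries 1 and 2). The lowest difference of all genes tested was -8.73. Among 1822 genes with at least 100 CPM in basal cells, 150 lay above 5 and 109 above 6. With at least 100 CPM in luminal cells, 4 genes lay below -6 in virgin mice and 80 in lactating mice. Counts of called genes past a 32-fold difference were uneven as well, with 856 higher and 130 lower in basal cells. Whether luminal RNA in the basal samples or expression by basal cells gave these levels was not tested. When luminal counts equal to 4.05% and 2.92% of a luminal library were subtracted from the basal libraries, 11119 genes were called, against 11155 without subtraction. Each percentage was the milk protein share of that basal library, divided by the share in luminal libraries of its stage. The subtraction thus takes out the milk protein total by construction, and the shift of that list is not a test. The sizes on the luminal side were less firm: the subtraction moved the median of milk protein genes to -9.35, of alveolar and luminal progenitor genes to -5.11 and of tight junction genes to -4.85, each more than 1.5 times further. Of 449 named genes 72 moved by more than 1.5 times, all lower in basal cells both ways, and 0 of them lost their call. Where the subtraction leaves few or 0 basal counts, the fitted size depends on the prior count.

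**Figure D2:**
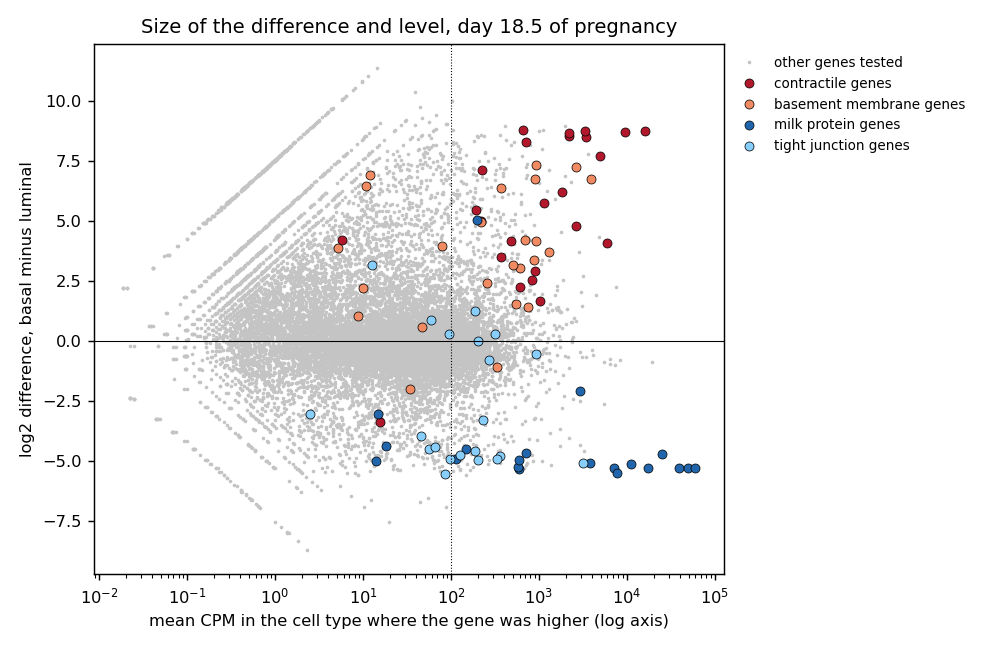
Log2 difference of basal over luminal cells (vertical) against the mean CPM in the cell type where the gene was higher (horizontal, log axis), for the 15969 genes tested. Grey points are other genes, coloured points 4 gene lists. Right of the dotted line at 100 CPM milk protein genes and other luminal genes end at -5.62 while 109 basal genes lie above 6. Left of it luminal genes reach -8.73. The slanted rows at the left are genes with few or 0 counts in 1 cell type, whose fitted values depend on the prior count.

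Milk fat genes were mostly lower in basal cells, by amounts that differed from gene to gene. Of 35 genes tested 28 were lower and 4 higher, with a median of -1.34. Btn1a1, butyrophilin of the milk fat globule, had 44.6 and 29.7 CPM in the basal libraries, against 1285 and 1452 CPM in the luminal libraries (-5.20, SE 0.21). Fatty acid synthase (Fasn) had 294 and 228 CPM in the basal libraries, against 1894 and 1716 CPM in the luminal libraries (-2.79, SE 0.18), and acetyl-CoA carboxylase (Acaca) differed by -3.48 (SE 0.20). The desaturase Scd1, the binding protein Fabp3 and lipoprotein lipase (Lpl) differed by -4.04 (SE 0.19), -5.01 (SE 0.20) and -4.83 (SE 0.22). Perilipin 2 (Plin2), which coats lipid droplets, had 137 and 132 CPM in the basal libraries, against 2681 and 3857 CPM in the luminal libraries (-4.60, SE 0.30). Other perilipin and lipid genes went the other way: Plin4 had 136 and 162 CPM in the basal libraries, against 1.34 and 1.92 CPM in the luminal libraries (6.52, SE 0.40), Dgat2, a triglyceride synthase, differed by 3.24 (SE 0.15), and Fabp4, a binding protein of fat cells and vessels, by 2.81 (SE 0.33).

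Lactose synthesis and glucose supply showed no common side, with 5 of 15 genes higher (33.3%) and 6 lower (40%) in basal cells. Over all genes tested the shares were 35.9% and 33.9%. B4galt1, the galactosyltransferase that joins Lalba, differed by -3.36 (SE 0.19), whereas the insulin-regulated glucose carrier Slc2a4 had 105 and 110.4 CPM in the basal libraries, against 0.896 and 0.838 CPM in the luminal libraries (6.94, SE 0.20) and the carrier Slc2a1 202 and 205 CPM in the basal libraries, against 344 and 351 CPM in the luminal libraries (-0.77, SE 0.10). Of 25 genes for ion, water and nutrient transport 18 were lower and 5 higher (median -1.60). The phosphate carriers Slc34a2 and Slc20a1 differed by -4.13 (SE 0.21) and -2.60 (SE 0.15), the calcium pump Atp2c2 by -3.64 (SE 0.23) and the iodide carrier Slc5a5 by -4.12 (-4.85 without basal library 1). Aqp1, a water channel, was higher in basal cells at 2.56 (SE 0.29), and Aqp3 and Aqp5 were lower at -2.21 (-1.59 without luminal library 2) and -4.94.

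The machinery of secretion was lower in basal cells by smaller steps. Of 35 genes of ER folding and the secretory pathway 19 were lower and 5 higher, with a median of -0.39. With library size alone as the scale, which moved the median gene by 0.19, 11 were higher. Xbp1, a transcription factor of secretory cells, had 81.6 and 77.4 CPM in the basal libraries, against 509 and 568 CPM in the luminal libraries (-2.76, SE 0.15), and the translocon subunits Sec61a1 and Ssr4 differed by -1.11 (SE 0.12) and -1.75 (SE 0.10). The chaperone gene Hspa5 was not called, with 1557 and 1335 CPM in the basal libraries, against 1345 and 1143 CPM in the luminal libraries. In prolactin signalling 7 of 18 genes were higher and 8 lower. Stat5a and Stat5b were lower at -1.91 (SE 0.14) and -2.15 (SE 0.14), and the feedback inhibitors Socs3, Socs1 and Socs2 were higher by 3.38 (SE 0.26), 3.83 (SE 0.17) and 1.27 (SE 0.18). Socs3 had 1067 and 1514 CPM in the basal libraries, against 117 and 129.8 CPM in the luminal libraries. Amino acid transporters gave 9 higher and 9 lower of 22, among them Slc1a5, a glutamine carrier, at 2.60 (SE 0.14) and Slc6a14 at -4.86 (SE 0.29).

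**Figure D3:**
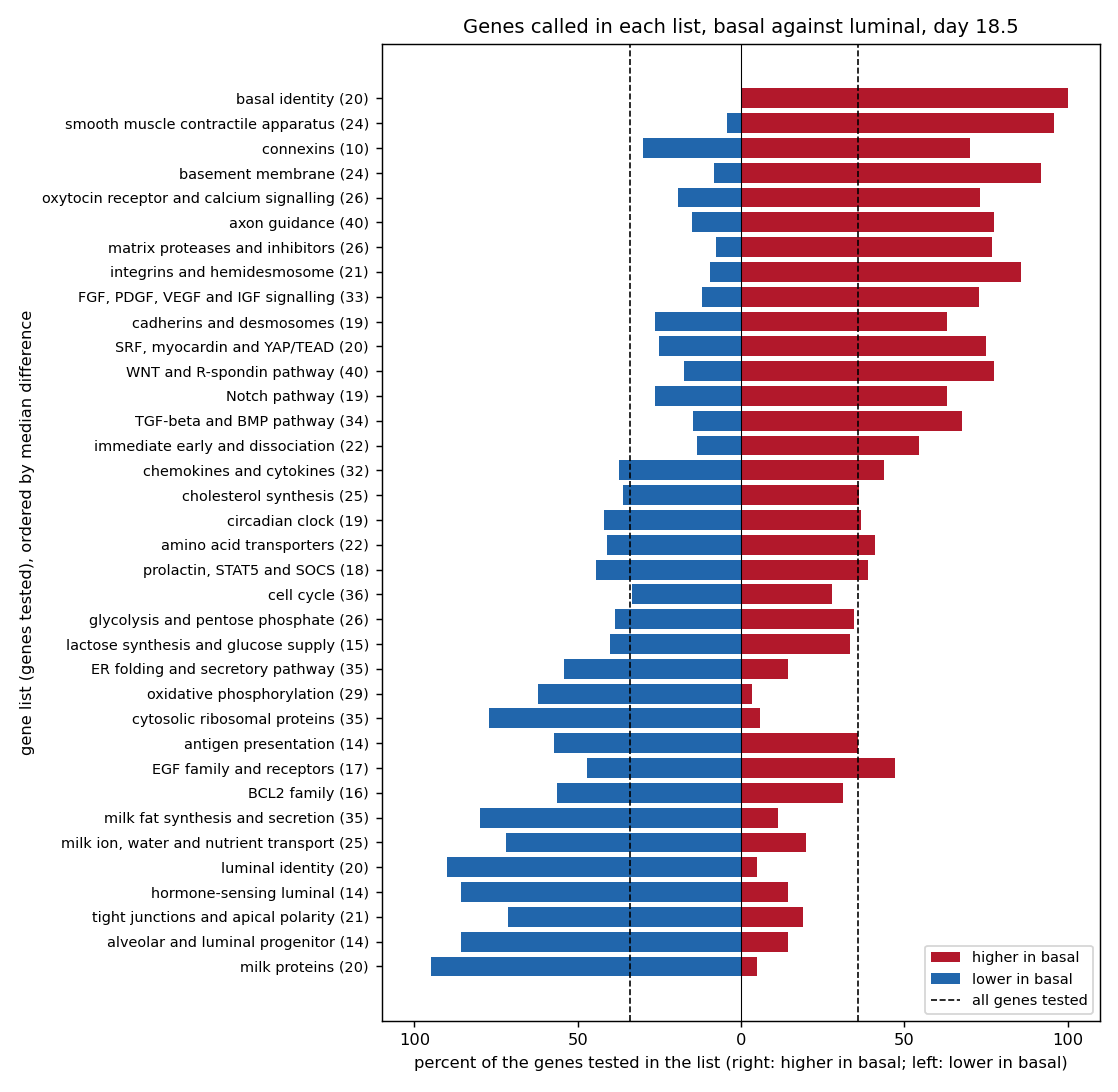
Share of the genes tested in each of 36 lists that were higher (right) or lower (left) in basal cells at day 18.5, ordered by median difference, with the number of genes tested in brackets. Dashed lines give the shares over all genes tested, 35.9% and 33.9%; basal identity, contractile and basement membrane genes reach farthest to the right and milk protein and luminal identity genes farthest to the left.

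Ligand genes and the genes of their receptors were set side by side for 20 pairs, which were chosen after the values were seen, so they are a description. The genes of 15 pairs were called on opposite sides and those of 5 on the same side. Over all genes tested 35.9% were higher in basal cells and 33.9% lower. Edn1, Egfr and Rspo1 each stood in more than 1 pair, and Ereg and Tgfa were not paired with Egfr. The difference of Tnfsf11 rests on luminal library 1 (-2.52 without it). The counts therefore depend on the choice of pairs. Nrg1, a neuregulin, had 223 and 247 CPM in the basal libraries, against 0.403 and 0.887 CPM in the luminal libraries, a difference of 8.52 (SE 0.24) that was 9.17 without luminal library 2. Its receptor gene Erbb3 had 7.82 and 5.77 CPM in the basal libraries, against 141 and 142 CPM in the luminal libraries (-4.37, SE 0.18). Nrg2 and Erbb4 gave the same arrangement, at 7.39 (SE 0.27) and -4.91 (SE 0.39). Ligands of the EGF receptor lay on both sides: Ereg was higher in basal cells by 7.45 (SE 0.57) and Tgfa by 2.72 (SE 0.23), while Hbegf was lower at -1.58 (SE 0.22) and Areg, a target of oestrogen, by -3.74 (-3.14 without luminal library 1 and -4.46 without basal library 1). Egfr itself had 131 and 137 CPM in the basal libraries, against 41.9 and 51.3 CPM in the luminal libraries (1.52, SE 0.14). Of 17 EGF family genes 8 were higher and 8 lower in basal cells.

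In the Notch pathway 12 of 19 genes were higher and 5 lower in basal cells. Dll1, a Notch ligand, had 711 and 747 CPM in the basal libraries, against 4.3 and 4.63 CPM in the luminal libraries (7.35, SE 0.17), and the ligands Jag1 and Jag2 differed by 4.51 (SE 0.14) and 6.37 (SE 0.19). Receptors went less far and the other way: Notch3 was lower at -1.68 (SE 0.20) and Notch2 by -0.58 (SE 0.12), and Notch1 was not called, with 80.9 and 67.5 CPM in the basal libraries, against 78.4 and 71.4 CPM in the luminal libraries. The target gene Hes1 had 36.9 and 46.2 CPM in the basal libraries, against 222 and 307 CPM in the luminal libraries (-2.67, SE 0.21). Another target gene, Hey1, was higher in basal cells at 2.70 (SE 0.40), so the targets did not share a side.

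WNT signalling was mainly basal, with 31 of 40 genes higher and 7 lower (median 1.68). Wnt10a and Wnt11 differed by 7.99 (SE 0.41) and 6.06 (SE 0.26), and Wnt6 by 9.42 (SE 0.29), or 10.28 without luminal library 1. Wnt5b and Wnt4 were lower at -2.55 (SE 0.14) and -1.34 (SE 0.19). Fzd7, a receptor, had 289.8 and 349 CPM in the basal libraries, against 15.5 and 14.3 CPM in the luminal libraries (4.42, SE 0.22). Wif1, a secreted inhibitor of WNT proteins, had 353 and 358 CPM in the basal libraries, against 0.761 and 1.08 CPM in the luminal libraries (8.59, SE 0.18). R-spondins amplify WNT signals through LGR receptors, and Rspo1 had 28 and 14.1 CPM in the basal libraries, against 403 and 274 CPM in the luminal libraries (-4.00, SE 0.29). Lgr6 was higher in basal cells by 1.69 (SE 0.19), and Lgr5 had 335 counts in basal and 1 in luminal libraries, a ratio of 278-fold (95% counting interval 49.5 to 11007). The fitted difference of Lgr5 depends on the prior count at 1 read, and was 7.83, or 10.24 without luminal library 1 and 7.03 without luminal library 2.

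Growth factor pathways lay mostly on the basal side. Of 33 genes of FGF, PDGF, VEGF and IGF signalling 24 were higher and 4 lower (median 1.85). Igfbp2, a binding protein of insulin-like growth factors, had 1044 and 1176 CPM in the basal libraries, against 2.28 and 2.81 CPM in the luminal libraries (8.77, SE 0.24), and Igfbp3, Igfbp4 and Igfbp5 differed by 7.57 (SE 0.24), 6.38 (SE 0.33) and 1.46 (SE 0.23). Igfbp5 had 3919.9 and 2281 CPM in the basal libraries, against 953 and 1298 CPM in the luminal libraries. Fgfr2 had 198 and 203 CPM in the basal libraries, against 7.88 and 10.2 CPM in the luminal libraries and its ligand gene Fgf1 35.2 and 43.5 CPM in the basal libraries, against 1.21 and 0.887 CPM in the luminal libraries, so both lay on the basal side (4.48, SE 0.14 and 5.21 (SE 0.22)). Hgf differed by 8.44 (9.28 without luminal library 2), and its receptor gene Met was lower at -1.03 (SE 0.13). In the TGF-beta and BMP pathway 23 of 34 genes were higher and 5 lower. Follistatin (Fst), an activin inhibitor, had 506 and 461 CPM in the basal libraries, against 1.43 and 1.97 CPM in the luminal libraries (8.15, SE 0.36), and Bmp7 differed by 5.51, or 6.27 without luminal library 1.

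Axon guidance genes, many of which also shape epithelia, were higher in basal cells in 31 of 40 cases and lower in 6 (median 2.63). Sema3c, Sema5a and Slit3 differed by 5.05 (SE 0.24), 7.65 (SE 0.32) and 6.92 (SE 0.18), and the SLIT receptors Robo1 and Robo2 by 4.77 (SE 0.22) and 6.26 (SE 0.50). Ephrin receptors shared that side, with Ephb2 at 7.14 (SE 0.33) and Epha4 at 3.40 (SE 0.16). Plxnb2 was lower, with 126 and 130.3 CPM in the basal libraries, against 276 and 296 CPM in the luminal libraries (-1.16, SE 0.12). Endothelin and its receptors lay on opposite sides. Edn1, a constrictor of smooth muscle, had 8.75 and 9.02 CPM in the basal libraries, against 146 and 236 CPM in the luminal libraries (-4.42, SE 0.26), while its receptor genes Ednra and Ednrb were higher in basal cells by 5.50 (SE 0.46) and 4.79 (SE 0.43). The cytokine gene Lif had 151 and 141 CPM in the basal libraries, against 389.7 and 622 CPM in the luminal libraries (-1.79, SE 0.23), against 3.12 (SE 0.22) for its receptor gene Lifr, with 168 and 259 CPM in the basal libraries, against 20 and 29.2 CPM in the luminal libraries.

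**Figure D4:**
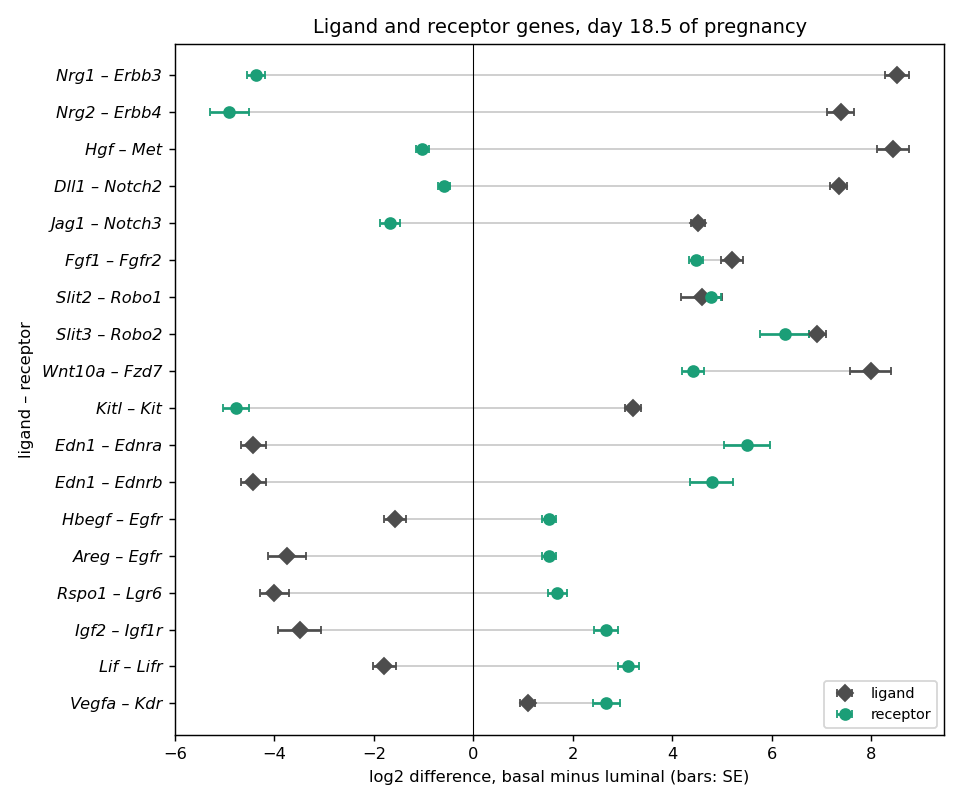
Log2 difference of basal over luminal cells, with SE, for ligand genes (diamonds) and receptor genes (circles) of 18 pairs. Pairs whose symbols lie on opposite sides of 0, such as Nrg1 and Erbb3 (8.52, or 9.17 without luminal library 2, and -4.37) or Edn1 and Ednra (-4.42 and 5.50), were higher in different cell types; Slit3 and Robo2 (6.92 and 6.26) were higher in basal cells together.

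Cytokines and immune genes had no common side. Of 32 chemokine and cytokine genes 14 were higher and 12 lower in basal cells. Cxcl14 had 795 and 1356 CPM in the basal libraries, against 3.18 and 5.37 CPM in the luminal libraries (7.98, SE 0.36), and Osmr, the receptor of oncostatin M, differed by 4.39 (SE 0.27). Csf3 was lower at -1.53 (SE 0.25) and Tnf at -2.58 (SE 0.23). In antigen presentation 8 of 14 genes were lower and 5 higher, with 3 higher without luminal library 2 and 2 without basal library 1. B2m, the light chain of class I molecules, and Psmb8, a subunit of the immunoproteasome, were lower at -1.26 (SE 0.28) and -1.99 (SE 0.18), whereas the regulator of class I genes, Nlrc5, was higher by 1.59 (SE 0.26). Immediate early genes, which can also reflect cell dissociation, had 12 of 22 higher and 3 lower, with Egr1 at 1681 and 1633 CPM in the basal libraries, against 510.4 and 726 CPM in the luminal libraries (1.42, SE 0.33) and Klf6 at -1.15 (SE 0.12). Fos was higher by 0.78, a call lost without luminal library 1 (0.60), basal library 1 (0.82) or basal library 2 (0.74). Their part in other results was not tested.

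Cell cycle genes had no common side. Of 36 genes 10 were higher and 12 lower, and the count of lower genes was 4 without luminal library 1 and 6 without basal library 2, and that of higher genes 6 without luminal library 2. Mki67, a marker of cycling cells, had 46.8 and 38.9 CPM in the basal libraries, against 80 and 55.6 CPM in the luminal libraries. Its difference of -0.66 was not called without luminal library 1 (-0.38) or basal library 2 (-0.54). Top2a, a topoisomerase of dividing cells, was higher by 0.74, a call lost without luminal library 2 (0.45). Ccnd2, a cyclin, had 98.6 and 72.1 CPM in the basal libraries, against 0.896 and 0.69 CPM in the luminal libraries (6.73, SE 0.32), and the inhibitors Cdkn1a and Cdkn1c were higher by 1.78 (SE 0.11) and 3.45 (SE 0.23; exon overlap of Cdkn1c 31.6%). In the BCL2 family of apoptosis regulators 9 of 16 genes were lower and 5 higher. The survival genes Bcl2l1 and Mcl1 had 54.2 and 46 CPM in the basal libraries, against 244 and 276 CPM in the luminal libraries for Bcl2l1 (-2.37, SE 0.16) and 587 and 546 CPM in the basal libraries, against 994 and 1156 CPM in the luminal libraries for Mcl1 (-0.92, SE 0.13). Bcl2 was higher in basal cells by 2.05 (SE 0.17), and so were Bok and Bcl2l11, which promote apoptosis, by 5.57 (SE 0.22) and 1.60 (SE 0.12).

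Oxidative phosphorylation and ribosomal protein genes differed by small amounts, and single genes of other housekeeping pathways by more. Of 29 oxidative phosphorylation genes 18 were lower in basal cells and 1 higher (median -0.45; 4 higher with library size alone), and of 35 cytosolic ribosomal protein genes 27 were lower and 2 higher (median -0.46; 17 lower with library size alone). Rplp0 had 531 and 498 CPM in the basal libraries, against 1108 and 1062 CPM in the luminal libraries (-1.08, SE 0.12). The mitochondrial transcript COX1 had 9896 and 11206 CPM in the basal libraries, against 18286 and 20284 CPM in the luminal libraries (-0.87, SE 0.16). In glycolysis and the pentose phosphate pathway 9 of 26 genes were higher and 10 lower. The enzymes of NADPH supply Pgd, Tkt and Me1 were lower at -2.50 (SE 0.12), -2.08 (SE 0.12) and -2.56 (SE 0.15), and Pfkp, a phosphofructokinase, was higher by 2.79 (SE 0.11). Cholesterol synthesis gave 9 higher and 9 lower of 25, with Cyp51 at 1.99 (SE 0.19) and Dhcr7 at -1.79 (SE 0.15). Clock genes gave 7 higher and 8 lower of 19, with Clock at 1.91 (SE 0.11) and Nfil3, a repressor of clock output, at 2.85 (SE 0.12).

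Markers of other cells of the gland were measured as lists, and their part in the results above was not tested. Of 13 fibroblast markers tested 12 were higher in basal cells and 0 lower (median 2.20), and their summed level was 4255 and 5089 CPM in basal libraries, against 105 and 76.7 CPM in luminal libraries. Most of it was Postn, periostin, with 3301 and 3929.7 CPM in the basal libraries, against 17.6 and 15 CPM in the luminal libraries (7.79, SE 0.24), and decorin (Dcn) with 434 and 580.1 CPM in the basal libraries, against 7.17 and 7.15 CPM in the luminal libraries. The fibroblast collagen Col1a1 had 51.2 and 60.9 CPM in the basal libraries, against 16.3 and 11.3 CPM in the luminal libraries (2.02, SE 0.25) and Pdgfra, a defining receptor, 2.73 and 2.93 CPM in the basal libraries, against 1.03 and 0.69 CPM in the luminal libraries (1.70, SE 0.34). Endothelial markers were higher in basal cells in 12 of 13 cases (median 2.37), with a summed level of 172 and 224 CPM in basal libraries, against 49.7 and 40.6 CPM in luminal libraries. Pecam1 had 22.8 and 33.2 CPM in the basal libraries, against 5.55 and 5.23 CPM in the luminal libraries. Pericyte and vascular muscle markers were higher in 7 of 8 cases and lower in 1 (median 4.12), with a sum of 176 and 225 CPM in basal libraries, against 106 and 105 CPM in luminal libraries. Most of the luminal sum was Notch3, the marker that was lower, with 17.5 and 29.6 CPM in the basal libraries, against 76.4 and 74 CPM in the luminal libraries. Pdgfrb, a pericyte receptor, had 15.4 and 20.8 CPM in the basal libraries, against 0.403 and 0.789 CPM in the luminal libraries. None of the markers in these 3 lists was at 0 in either cell type. These cells also carry contractile and matrix genes.

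Leukocyte markers summed to 15.4 and 18.3 CPM in basal libraries, against 16 and 17.8 CPM in luminal libraries, with 2 of 8 tested higher and 2 lower, and 1 of 14 listed markers at 0 in basal and 2 in luminal cells; the count of higher markers was 0 or 1 without any 1 of the 4 libraries. Erythroid and platelet markers had 1 of 5 higher and 2 lower, with 0 higher without basal library 1 or either luminal library, and Schwann cell and nerve markers 3 of 7 higher and 3 lower. Of the 9 adipocyte markers 5 were tested, 3 higher and 1 lower. Adipoq, a defining gene of fat cells, had 3 counts in basal and 2 in luminal libraries. Lep, leptin, stood apart, with 1912 counts in basal and 1 in luminal libraries, or 14.5 and 62.6 CPM in the basal libraries, against 0.0448 and 0 CPM in the luminal libraries. The ratio was 1586-fold (95% counting interval 284 to 62669.5). Basal library 2 held most of its counts. The fitted difference of Lep, which depends on the prior count, was 10.38, or 8.97 without basal library 2, 11.08 without basal library 1, 12.79 without luminal library 1 and 9.58 without luminal library 2.

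Genes at the ends of the comparison that belong to none of these groups were named by the size of their difference, with at least 5 counts in each library. Ecrg4, a secreted peptide precursor, had 442 and 382 CPM in the basal libraries, against 1.03 and 0.592 CPM in the luminal libraries and the largest difference of the 24 so named, at 8.96 (SE 0.27). Fmod, a collagen-binding proteoglycan, and Pdpn, podoplanin, differed by 8.76 (SE 0.27) and 8.58 (SE 0.27). Il17b, a cytokine, differed by 8.55, or 9.34 without luminal library 1. At the luminal end Calca, the calcitonin gene, had 1.14 and 0.247 CPM in the basal libraries, against 100.2 and 76.7 CPM in the luminal libraries (-6.94, and -8.45 and -6.27 without basal libraries 1 and 2). The ferroxidase gene Hephl1 and the membrane protease Tmprss6 differed by -5.58 (SE 0.24) and -6.58 (-7.34 without basal library 1), and Spp1, osteopontin, by -5.52 (SE 0.23), at 193 and 144 CPM in the basal libraries, against 6449 and 9017 CPM in the luminal libraries. The values of 3 luminal genes depended on 1 luminal library: Bmp3 was -5.42, or -6.04 and -4.33 without luminal libraries 1 and 2, Slc9a4 (exon overlap 22.6%) -5.41 or -4.63 without luminal library 2, and the surfactant protein gene Sftpd -5.41 or -4.56 without it. By difference in level, Thbs1, thrombospondin 1, followed Acta2 and Myh11 on the basal side, with 6435 and 8414 CPM in the basal libraries, against 1337 and 1778 CPM in the luminal libraries (2.25, SE 0.29), and transferrin (Trf; exon overlap 73.6%) was among the highest on the luminal side, with 1063 and 839 CPM in the basal libraries, against 23888 and 25879 CPM in the luminal libraries.

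The gap between the cell types was then set against that in virgin mice, where 62.8% of genes were called, 31.5% higher in basal cells and 31.2% lower. Of the genes higher in basal cells in late pregnancy, 71.3% were so in virgin mice, which was 81.2% of the virgin list, and of those lower 68.0% and 73.9%. Opposite calls were made for 438 genes that also passed the test of the change. The difference itself departed from that of virgin mice in 4908 genes (30.7% of those tested), 2666 upward (16.7%) and 2242 downward (14.0%); with library size alone as the scale 4614 went up and 1008 down, a shift of the median gene by about 0.34 against TMM. Of the 2666, luminal cells alone passed the test between the stages in 1388, basal cells alone in 502 and both in 679. Between late pregnancy and virgin mice 30.0% of genes were called in basal cells (15.6% higher in late pregnancy, 14.4% lower) and 45.9% in luminal cells (21.8% higher, 24.1% lower).

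Ptn, pleiotrophin, had the largest upward departure among the genes named for it, 8.39 (SE 0.19). It had 87.6 and 97.3 CPM in the basal libraries, against 2.73 and 2.42 CPM in the luminal libraries, whereas in virgin mice it had 122 and 124 CPM in basal and 1073 and 1231 CPM in luminal libraries. Its sign was thus the opposite in virgin mice. Fgg, a fibrinogen chain, and the keratin gene Krt6a also departed upward, by 8.05 (SE 0.43) and 7.51 (SE 0.38). Krt6a had 84.1 and 116 CPM in virgin and 0.582 and 0.493 CPM in pregnant luminal libraries, though 26.3% of its exon length is shared and Krt6b is a close copy (pregnant difference of Krt6b 6.12, or 6.84 without luminal library 2). Dcn moved on both sides, with 54.2 and 89 CPM in basal and 346 and 169.9 CPM in luminal libraries of virgin mice against the late pregnancy levels given above (7.99, SE 0.48, or 7.39 without virgin luminal library 1). Cd44, an adhesion receptor, and Fgfr2 departed by 4.36 (SE 0.27) and 5.35 (SE 0.18), and Pgm5, a protein of adhesion plaques in muscle, by 5.75 (SE 0.25).

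Downward departures included genes of fat handling and growth. Cd36, a fatty acid carrier, had 79.2 and 115 CPM in the basal libraries, against 695 and 1120.5 CPM in the luminal libraries, and in virgin mice 82.2 and 141 CPM in basal and 20.5 and 28.4 CPM in luminal libraries (-5.42, SE 0.41). Its sign thus changed between the stages. Igf2, an imprinted growth factor, departed by -6.37 (SE 0.61; -5.62 without luminal library 2), with 3.21 and 3.46 CPM in the basal libraries, against 22.3 and 53 CPM in the luminal libraries and a difference of -3.49 (-2.74 without luminal library 2); 67.0% of its exon length is shared with other genes. Apln, the peptide apelin, and Rgs16, a brake on G-protein signals, departed by -4.82 (SE 0.42) and -4.82 (SE 0.44), and Lpo, the milk peroxidase, by -5.94 (SE 0.48). Over lists, the median departure from virgin was -1.01 in milk fat genes, 1.56 in hormone-sensing genes and 0.78 in contractile genes.

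Set against day 2 of lactation, the difference departed in 5787 genes (36.2%), 2918 upward (18.3%) and 2869 downward (18.0%); with library size alone 1012 went up and 7921 down, a shift of about -0.79. Among genes higher in basal cells in late pregnancy 81.4% were so in lactation, 74.7% of the lactation list, and among those lower 75.9% and 72.6%; in lactation 74.6% of genes were called, 39.2% higher in basal cells and 35.4% lower. Between late pregnancy and lactation 33.1% of genes were called in basal cells (17.4% higher in late pregnancy, 15.7% lower) and 48.3% in luminal cells (24.6% higher, 23.7% lower). Milk protein genes departed upward with a median of 2.24. Csn2 departed by 2.26 (SE 0.46), and this was no longer called (1.97) once luminal counts were subtracted from the basal libraries. Csn3, kappa-casein, departed by 2.05 (SE 0.29), and by -9.28 after the subtraction, so its direction turned. Since the subtraction was set from milk protein counts, these shifts of milk protein genes are not a test of their departures. Cell cycle genes departed by a median of 2.42, with Mki67 at 3.52 (SE 0.27); its difference was -0.66 in late pregnancy (-0.38 and -0.54 without luminal library 1 and basal library 2) and -4.18 in lactation. Slc39a8, a metal carrier, had 14.5 and 19.8 CPM in basal and 169 and 157 CPM in luminal libraries of lactating mice, and 13.4 and 14.2 CPM in basal libraries 1 and 2 and 1.21 and 2.42 CPM in luminal libraries 1 and 2 in late pregnancy (6.19, SE 0.32). Apod, a lipocalin, departed by 7.44 (SE 0.49) and Pthlh, a hormone that frees calcium for milk, by 5.06 (SE 0.45), and luminal libraries held it at 0.403 and 0.345 CPM in late pregnancy and 27.4 and 39.9 CPM in lactation.

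Downward departures from lactation included a transcription factor, matrix genes and adhesion genes. Creb5, a transcription factor, had 10 and 13.9 CPM in basal libraries 1 and 2 and 20.2 and 26.3 CPM in luminal libraries 1 and 2, and in lactation 70.8 and 71.5 CPM in basal and 3.13 and 2.5 CPM in luminal libraries (-5.62, SE 0.27). Ccn2 departed by -4.98 (SE 0.38), with 3.21 and 4.62 CPM in lactating luminal libraries. Rspo1 and Ppl, which encodes periplakin, departed by -4.83 (SE 0.47) and -4.63 (SE 0.20), and Itga2 by -4.62 (SE 0.39). Oxtr, the oxytocin receptor gene, departed by -3.06 (SE 0.34), from a difference of 6.44 in lactation. Integrin and hemidesmosome genes had a median departure of -0.74 and contractile genes of -0.76.

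**Figure D5:**
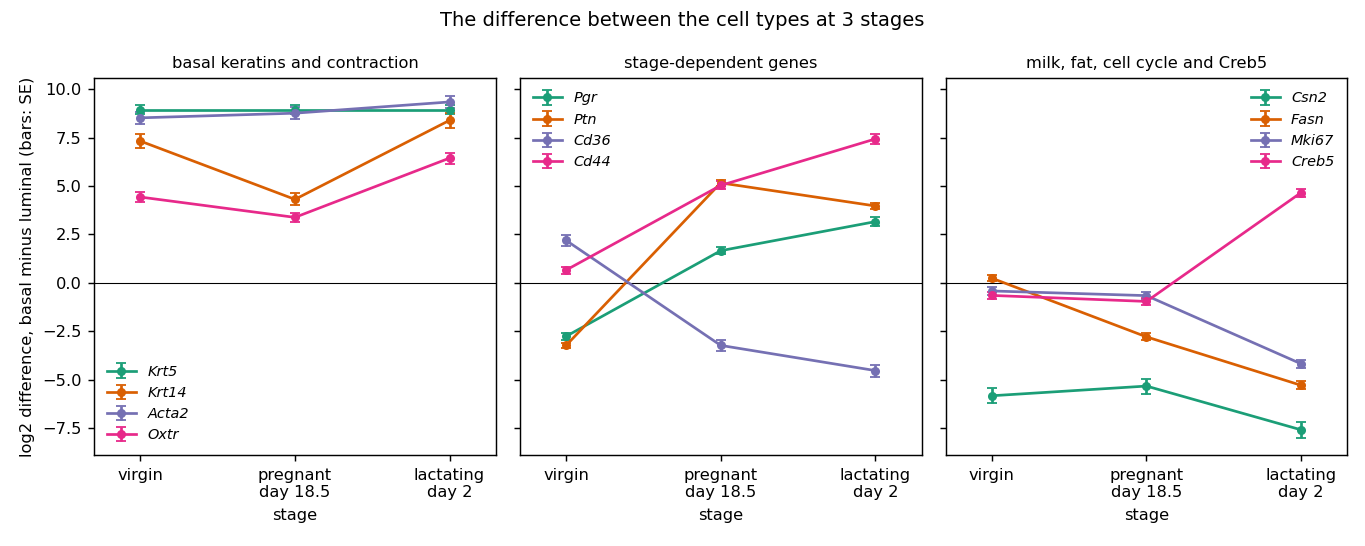
Log2 difference of basal over luminal cells, with SE, in virgin mice, at day 18.5 of pregnancy and at day 2 of lactation, for 12 genes in 3 panels. Krt5 stays at 8.94, Krt14 dips to 4.31 in late pregnancy, and Pgr and Ptn change sign between virgin and pregnant mice. Mki67 lies at -0.66 in late pregnancy (-0.38 and -0.54 without luminal library 1 and basal library 2) and at -4.18 in lactation. Creb5 changes sign between late pregnancy (-0.96) and lactation (4.66).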

How the data were processed

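The authors deposited raw read counts per gene for 12 libraries, per the file headers with 1 column per library and a gene length. Per the submitters' processing notes CASAVA 1.8.2, Subread 1.4.4 and featureCounts were used with GRCm38 and mm10, and a strand setting is not given in the sources used here. The table held 27179 genes, of which 25275 were matched to a symbol; the 12 single-library files held the same counts, with 0 differences. Genes were filtered with edgeR 4.0.16 (R 4.3.3; minimum count 10, by group), which left 15969, scaled by TMM, and fitted as 6 group means over all 12 libraries with the quasi-likelihood test and Benjamini-Hochberg adjustment at 0.05. DESeq2 1.42.0 was an alternative. The SE is the log2 difference divided by the root of F. Departures from other stages are interaction contrasts. RPKM used the deposited gene lengths, and a fold against 0 counts uses a floor of 3 counts over both libraries of a group. Counting intervals (95%) cover counting error only. Exon overlap was taken from GENCODE annotation where over 20% of the exon length was shared. Nothing says that the 2 samples of a group came from separate cultures or litters beyond the 2 mice per stage. The p-values rest on the spread between libraries within groups, estimated over all 6 groups with information shared across genes.

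Named genes were the 12 highest and 12 lowest differences (at least 5 counts in each library compared and the same call without any 1 library), the 8 each way with the largest gap in CPM, up to 5 each way of each list plus members needed to describe a group, and the 8 each way departing most from another stage, under the same conditions. Some genes that the rule names are not reported here. The members and the 43 lists were chosen with earlier results of these data known. The test was checked on simulated counts.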

Additional observations from a re-analysis of the deposited data

Results flagged for a closer look

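A gene chosen by the rule for named genes is listed here where its difference between basal and luminal cells in late pregnancy departed from that of another stage by at least 3 on the log2 scale, by the test of the departure itself (edgeR quasi-likelihood interaction, adjusted p below 0.05), which held for 103 departures. Each value is the late pregnancy difference minus that of the other stage. With 2 libraries a group, single libraries could not be tested as lying apart from their group. Where leaving out 1 library lost the call or moved a departure by more than 1.5 times, the value without that library is given after the list it belongs to.

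Against virgin mice, upward departures were found for Ptn (8.39), Cnmd (8.32), Fgg (8.05), Dcn (7.99), Krt6a (7.51), Fut9 (7.15), Krt6b (6.92), Piezo2 (6.59) and Pgm5 (5.75). Smaller ones followed for Apod (5.53), Fgfr2 (5.35), Cdh4 (4.69), Ncam1 (4.58), Plin4 (4.49), Ednra (4.49), Pgr (4.42), Cd44 (4.36) and Itgb3 (4.17). Further down came Ror2 (4.16), Ntn4 (4.13), Sema3d (4.03), Fgf1 (3.89), Hey1 (3.82), Col4a3 (3.63), Gjb5 (3.60), Slc2a12 (3.58) and Loxl2 (3.57). Next were Igfbp4 (3.53), Tbx3 (3.43), Osmr (3.40), Sema5a (3.37), Cspg4 (3.32), Kcnma1 (3.27), Dsp (3.26), Ppp1r14a (3.20) and Chil1 (3.17). The remaining ones were Bhlhe41 (3.15), Ereg (3.06), Cdkn2a (3.06), Wnt4 (3.03), Cdh13 (3.03) and Dgat2 (3.0). The departure of Dcn was 7.39 without virgin luminal library 1. The departure of Krt6b was 7.64 without pregnant luminal library 2. The departure of Piezo2 was 7.24 without pregnant luminal library 1. For Cdh4 the call was lost at 4.14 without virgin luminal library 2, 4.70 without pregnant luminal library 1, 4.71 without pregnant luminal library 2, 4.45 without virgin basal library 2 and 4.55 without pregnant basal library 1. The departure of Plin4 was 3.76 without virgin luminal library 2 and 5.21 without virgin basal library 2. The departure of Ror2 was 5.21 without pregnant luminal library 1. That of Ntn4 was 3.33 without pregnant basal library 2, and its call was lost at 4.2 without virgin luminal library 1, 4.05 without virgin luminal library 2, 6.55 without pregnant luminal library 1, 3.34 without pregnant luminal library 2, 4.21 without virgin basal library 1 and 4.05 without virgin basal library 2. For Sema3d the call was lost at 3.50 without virgin luminal library 2. That of Col4a3 was 3.01 without virgin basal library 1 and 4.65 without virgin basal library 2, and its call was lost at 3.21 without virgin luminal library 1, 3.96 without virgin luminal library 2, 3.0 without pregnant luminal library 1, 4.62 without pregnant luminal library 2 and 3.49 without pregnant basal library 2. That of Gjb5 was 6.03 without pregnant luminal library 2, and its call was lost at 3.32 without virgin luminal library 2 and 2.68 without pregnant luminal library 1. The departure of Loxl2 was 4.34 without virgin basal library 2. The departure of Cspg4 was 2.69 without virgin luminal library 2, 7.82 without pregnant luminal library 1 and 2.42 without pregnant luminal library 2. The departure of Kcnma1 was 2.60 without virgin luminal library 1 and 4.16 without pregnant luminal library 1. That of Ereg was 3.92 without virgin basal library 2, and its call was lost at 2.61 without virgin luminal library 2, 2.90 without pregnant luminal library 1 and 3.23 without pregnant luminal library 2. That of Cdkn2a was 6.86 without pregnant luminal library 1, and its call was lost at 3.01 without virgin luminal library 1, 3.10 without virgin luminal library 2, 2.18 without pregnant luminal library 2, 3.08 without virgin basal library 1, 3.03 without virgin basal library 2 and 2.50 without pregnant basal library 1.

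Against virgin mice, downward departures were found for Igf2 (-6.37), Lpo (-5.94), Skint8 (-5.55), Cd36 (-5.42), 2810459M11Rik (-5.0), Aqp9 (-4.90), Rgs16 (-4.82), Apln (-4.82) and Atp2b2 (-4.27). Smaller ones followed for Fabp3 (-4.20), Slc7a8 (-3.87), Cdh19 (-3.78), Plxnb3 (-3.76), Gjb6 (-3.69), Pdgfd (-3.61), Lpl (-3.57), Acaca (-3.37) and Fasn (-3.03). Further down came Krt14 (-3.01). The departure of Igf2 was -5.62 without pregnant luminal library 2. The departure of Skint8 was -4.78 without pregnant basal library 1 and -7.10 without pregnant basal library 2. The departure of Cdh19 was -4.41 without virgin luminal library 2. The departure of Plxnb3 was -4.60 without virgin luminal library 2. That of Gjb6 was -4.28 without virgin basal library 1, and its call was lost at -2.79 without virgin basal library 2. The departure of Krt14 was -3.61 without virgin luminal library 2.

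Against lactating mice, upward departures were found for Apod (7.44), Cxcl17 (6.93), Slc39a8 (6.19), Adcy1 (5.40), Tmem266 (5.21), Orm2 (5.20), Ddah1 (5.08), Pthlh (5.06) and Cdh4 (5.05). Smaller ones followed for Slc1a3 (5.03), Robo2 (4.77), Cdh19 (4.33), Nid1 (4.17), Egf (3.83), Fgg (3.67), Tspan8 (3.66), Atp2b2 (3.54) and Sema3d (3.53). Further down came Mki67 (3.52), Ube2c (3.34), Slc34a2 (3.28), Aqp5 (3.28), Timd2 (3.26), Slc7a8 (3.16), Cdkn2a (3.15) and Il15 (3.01). That of Cxcl17 was 7.76 without pregnant luminal library 2 and 7.64 without pregnant basal library 2, and its call was lost at 5.13 without pregnant basal library 1, 6.93 without lactating basal library 1 and 6.94 without lactating basal library 2. The departure of Tmem266 was 6.0 without pregnant luminal library 1. For Cdh4 the call was lost at 5.06 without pregnant luminal library 1, 5.07 without pregnant luminal library 2, 4.58 without lactating luminal library 1, 4.91 without pregnant basal library 1, 5.11 without lactating basal library 1 and 5.01 without lactating basal library 2. That of Cdh19 was 6.71 without lactating basal library 1 and 3.49 without lactating basal library 2, and its call was lost at 4.0 without pregnant basal library 1. That of Sema3d was 4.19 without lactating luminal library 1, and its call was lost at 3.47 without pregnant luminal library 1 and 2.43 without lactating luminal library 2. For Aqp5 the call was lost at 3.05 without pregnant luminal library 2, 2.81 without pregnant basal library 1, 3.61 without pregnant basal library 2, 3.80 without lactating basal library 1 and 2.91 without lactating basal library 2. That of Cdkn2a was 6.96 without pregnant luminal library 1 and 4.05 without lactating basal library 2, and its call was lost at 2.27 without pregnant luminal library 2, 2.71 without lactating luminal library 2, 2.59 without pregnant basal library 1 and 2.59 without lactating basal library 1.

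Against lactating mice, downward departures were found for Creb5 (-5.62), Ror2 (-5.30), Ccn2 (-4.98), Rspo1 (-4.83), Arhgef28 (-4.78), Smoc1 (-4.66), Ppl (-4.63), Itga2 (-4.62) and Ltbp1 (-4.37). Smaller ones followed for Krt14 (-4.08), Lgr6 (-3.81), Thbs1 (-3.70), Krt19 (-3.54), Heyl (-3.51), Egr3 (-3.06) and Oxtr (-3.06). For Ror2 the call was lost at -4.25 without pregnant luminal library 1, -5.35 without lactating luminal library 1, -5.35 without lactating luminal library 2, -5.10 without pregnant basal library 2, -5.25 without lactating basal library 1 and -5.37 without lactating basal library 2. The departure of Smoc1 was -5.46 without lactating luminal library 2.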

How the results depend on the processing

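The counts of genes called kept within 1.5 times under RLE factors, milk protein genes left out of the scaling, no low-count filter, at least 50 counts in 2 libraries, only the stages compared in the fit, the luminal subtraction, DESeq2 and the replicate block. Tested against a 2-fold change, 5263 genes were called in late pregnancy (3285 higher, 1978 lower in basal cells), 1166 departed from virgin mice (822 upward, 344 downward) and 1332 from lactation (791 upward, 541 downward). With library size alone, 4614 departed upward and 1008 downward from virgin mice, and 8933 from lactation (1012 upward, 7921 downward). Leaving out 1 library gave 9966 to 11210 genes in late pregnancy (5201 to 5759 higher, 4765 to 5451 lower), 3740 to 4670 against virgin mice (2072 to 2539 upward, 1641 to 2131 downward) and 4613 to 5950 against lactation (2373 to 3007 upward, 2102 to 2943 downward). The labels number 2 replicates per group without saying that a number marks 1 mouse. Deviations of basal and luminal libraries of the same number correlated at 0.251, 0.325 and 0.156 within the 3 stages, over 9197 genes. With the replicate block 11455 genes were called in late pregnancy, and 6 of 893 results on named genes lost their call. Over all 893 results and settings, 18507 of 19623 values kept their direction and side of the threshold, 1093 lost their call, 3 gained one and 20 turned. With library size alone, departures from lactation turned for Col4a1 (-0.13), Gna11 (-0.26), Smad3 (-0.28), Slc2a1 (-0.28), Tnfrsf11a (-0.06), Dnajb9 (-0.03), Sdhc (-0.29), Ndufa10 (-0.27), Clock (-0.11), Mbp (-0.03), Fgfr2 (-0.18) and Hspa5 (-0.14). With luminal counts subtracted, they turned for Timd2 (-0.60), Gjb6 (-5.53), Csn3 (-9.28), Cldn4 (-0.71), Elf5 (-2.12), Cgn (-1.61) and Fabp3 (-1.23), and the departure of Muc1 from virgin mice turned to 0.23. The size of that subtraction was set from milk protein counts. Only the turned values of Gjb6, Csn3, Elf5 and Cgn were called in the new direction, and the others were not called. The cause of these turns was not tested. With 2 libraries a group, their number limits the precision throughout.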
